A study of Mus musculus with 6 samples.

Results

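The urea cycle turns ammonia into urea in the liver. The 10 genes described here encode its enzymes, the mitochondrial carriers it depends on and the enzymes that release ammonia from glutamine and glutamate. They are Gls2, Glud1, Nags, Cps1, Otc, Ass1, Asl, Arg1, Slc25a15 and Slc25a13. The list is one of gene symbols, and no measured value enters the rule that finds its members. All 10 were found among the 39179 Ensembl gene identifiers of the count tables, and 10 of 10 passed the filter on low counts that left 11375 tested genes.

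Bulk RNA sequencing of polyadenylated RNA was carried out on mouse liver, in 3 libraries of isolated steatosis and 3 of nonalcoholic steatohepatitis (NASH). All 6 came from C57BL/6J mice whose high-fat diet (60% of energy as fat) began at 5 weeks of age and lasted 21 weeks, with no other agent or allele named. The groups are classes read from haematoxylin and eosin staining within 1 diet, so neither is an assigned treatment, and no lean liver was analysed here. The labels do not state that each library is a separate mouse, so p-values measure the spread between these samples, which may be technical.

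In hepatocytes, glutaminase and glutamate dehydrogenase release ammonia inside mitochondria. N-acetylglutamate, made by NAGS, activates CPS1, which joins ammonia to bicarbonate. OTC passes the product to ornithine to form citrulline, ASS1 and ASL rebuild arginine with nitrogen from aspartate, and ARG1 splits arginine into urea and ornithine. The enzymes of the cycle are most active in periportal hepatocytes, next to the vessels that bring blood in. Pericentral hepatocytes at the outflow capture leftover ammonia as glutamine through GLUL.

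Library totals ran from 13909238 to 18002095 counts. Mitochondrial transcripts took 62.0% to 83.9% of them, and 4 loci with rRNA-like sequence took 0.596% to 22.3%, highest in NASH 3 and next highest, at 8.96%, in steatosis 2. That left 2185922 to 5149189 other counts per library. The 10 genes together held 0.288% to 0.435% of those other counts in steatosis and 0.375% to 0.473% in NASH, so the groups overlapped. Hepatocyte markers were abundant in every library, as the label liver requires, with a summed level of 12400 to 13600 CPM (counts relative to the library size after scaling by the trimmed mean of M values, TMM) in steatosis and 10300 to 12400 in NASH.

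Among the 10 genes, Gls2, the liver-type glutaminase, rose in NASH to 2.66 times its steatosis level, and the other 9 did not pass the test. Ass1, the argininosuccinate synthetase, had the next largest value, with 3 NASH libraries above all 3 steatosis libraries but an adjusted p above the threshold of 0.05. Slc25a13 and Glud1 were lower in all 3 NASH libraries than in any steatosis library without passing the test, Glud1 by the narrowest margin. Cps1, Otc, Asl, Arg1, Nags and Slc25a15 overlapped between the groups. In bulk tissue, fewer cells of a type and less RNA per cell cannot be told apart.

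Each of the 11375 genes was tested for a difference between NASH and steatosis with the quasi-likelihood F test of edgeR, adjusted by Benjamini-Hochberg over all of them. Fold changes are NASH over steatosis, given as log2 ratios, and 548 genes (4.82%) were called at an adjusted p under 0.05. Of these, 169 (1.49%) were higher and 379 (3.33%) lower in NASH. The 10 genes gave 1 call, higher. Without adjustment, 2 of the 10 were under 0.05, against 23.2% of all tested genes. The 3 values of each group did not overlap for 4 of the 10, 2 higher and 2 lower. Over all tested genes the same was true of 29.3%, with 13.1% higher and 16.2% lower. The median log2 fold change of the 10 was 0.25, beside 0.01 over all tested genes, of which 90% lay between -0.98 and 0.84.

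**Figure D1:**
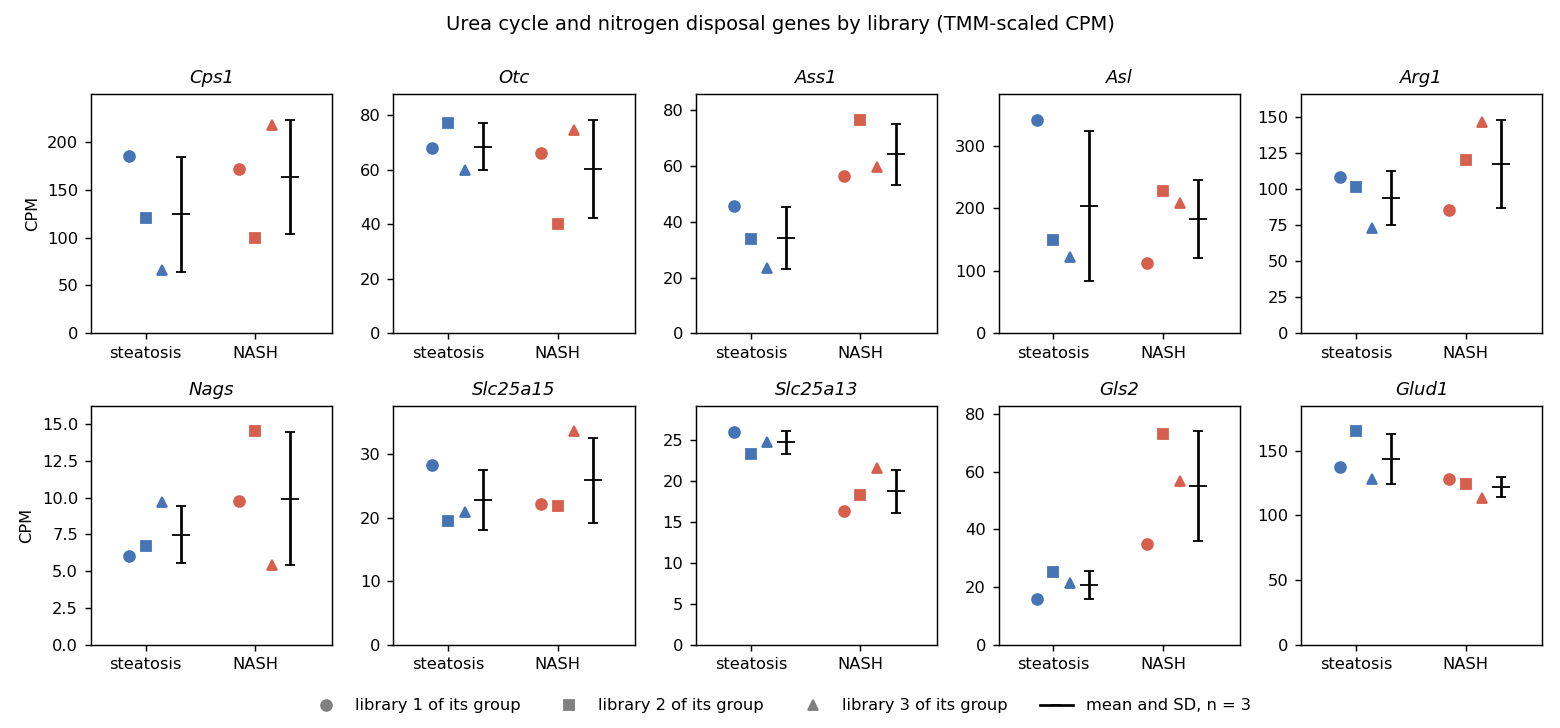
Level of each of the 10 genes in every library (y axis: CPM from 0, separate scale per panel; x axis: group). Points are libraries and bars the mean and SD of 3; the Gls2 panel shows every NASH library above every steatosis library, while Cps1, Otc, Asl, Arg1, Nags and Slc25a15 overlap.

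Gls2 (ENSMUSG00000044005) lies on chromosome 10, 128194457 to 128210004 on the plus strand of GRCm38. Its product cleaves glutamine to glutamate and ammonia in the mitochondrion. Gls2 stood at 15.7, 25.1 and 21.2 CPM in steatosis 1, 2 and 3, and at 35.0, 73.1 and 56.8 CPM in NASH 1, 2 and 3. The lowest NASH library, NASH 1, was above the highest steatosis library, and NASH 2 was the highest of all. The mean went from 20.7 ± 4.72 to 55.0 ± 19.1 CPM (SD, n = 3 per group; log2 fold change 1.41, SE 0.29; adjusted p = 0.0278 in edgeR). Raw counts behind these levels were 255, 419 and 572 in steatosis and 504, 1092 and 626 in NASH. The call did not survive leaving out any 1 library other than NASH 1. When steatosis 1, 2 or 3 was omitted, the edgeR adjusted p was 0.108, 0.0721 or 0.0534, and when NASH 2 or 3 was omitted it was 0.0737 or 0.0601. The log2 ratio lay between 1.17 and 1.65 over the 6 omissions. In the 4 libraries lowest in rRNA-like reads, without steatosis 2 and NASH 3, it was 1.55 (edgeR adjusted p = 0.133). With libraries scaled to all their counts Gls2 also did not pass (log2 fold change 0.89, edgeR adjusted p = 0.0856). That scaling moved the median of all tested genes to -0.48, and relative to it the Gls2 value was 1.37.

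Gls2 shares 97 bases with Spryd4 on the opposite strand, and the strand setting of the counting is not given. Spryd4 ran at 1.91 to 3.12 CPM in steatosis and 1.11 to 1.73 CPM in NASH, the opposite direction to Gls2. Its part in the Gls2 counts was not tested.

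Glud1, the glutamate dehydrogenase gene, lies on chromosome 14 from 34310727 to 34345265. Glud1 measured 137, 165 and 128 CPM in steatosis and 128, 124 and 113 CPM in NASH. The groups stayed apart by the narrowest of margins, since steatosis 3 and NASH 1 were nearly equal. Mean levels were 143 ± 19.2 CPM and 122 ± 7.63 CPM, a log2 fold change of -0.24 (SE 0.22; adjusted p = 0.557 in edgeR). With libraries scaled to their counts outside mitochondrial and rRNA-like loci, the Glud1 groups overlapped, at 620.0, 815.0 and 670.0 against 680.0, 682.0 and 571.0 CPM on that scale.

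Nags, which makes the activator of CPS1, was the lowest of the 10 in CPM. It lies on chromosome 11 from 102145513 to 102149477. Its levels were 6.04, 6.71 and 9.68 CPM in steatosis and 9.80, 14.5 and 5.45 CPM in NASH. NASH 3 was the lowest of the 6 libraries and NASH 2 the highest, so the NASH group spanned the whole steatosis range. The log2 fold change was 0.41 (SE 0.32; adjusted p = 0.491 in edgeR). Nags shares 443 exon bases with Gm11586 on the opposite strand, which held 0 or 1 counts per library. The effect of that overlap on the Nags counts was not tested.

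Cps1, the enzyme that admits ammonia to the cycle, lies on chromosome 1 from 67123026 to 67231259. Cps1 was at 186, 121 and 66.3 CPM in steatosis and at 172, 99.9 and 218 CPM in NASH. Each group held a library with a low value, steatosis 3 and NASH 2, and the spread within a group was larger than the difference between them. The means were 124 ± 59.7 and 163 ± 59.7 CPM (log2 ratio 0.39, SE 0.39; adjusted p = 0.584 in edgeR). Otc, the ornithine transcarbamylase on the X chromosome from 10252305 to 10321024, gave 68.2, 77.3 and 60.0 CPM in steatosis and 66.2, 40.1 and 74.7 CPM in NASH. Only NASH 2 lay outside the steatosis range, below it. Its log2 fold change was -0.18 (SE 0.26; adjusted p = 0.725 in edgeR).

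Ass1 joins citrulline to aspartate and lies on chromosome 2 from 31470207 to 31520672. Ass1 measured 45.6, 33.9 and 23.4 CPM in steatosis and 56.3, 76.5 and 59.7 CPM in NASH. Every NASH library was above every steatosis library, with NASH 2 highest and steatosis 3 lowest. The mean went from 34.3 ± 11.1 to 64.2 ± 10.8 CPM, with a log2 fold change of 0.90 (SE 0.27; adjusted p = 0.0822 in edgeR). The call differed by tool: DESeq2 gave 0.92 with an adjusted p of 0.0258, and edgeR without the low-count filter 0.87 with 0.0177. Over all alternatives the adjusted p of Ass1 ran from 0.0177 to 0.279.

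Asl releases arginine and lies on chromosome 5 from 130011258 to 130029247. Asl gave 341, 149 and 122 CPM in steatosis and 112, 228 and 209 CPM in NASH. Steatosis 1 was far above the other libraries, and the other two steatosis libraries lay inside the NASH range. The log2 fold change of -0.15 (SE 0.41; adjusted p = 0.864 in edgeR) became 0.45 without steatosis 1. Arg1, the arginase of chromosome 10 from 24915221 to 24927484, gave 108, 101 and 72.9 CPM in steatosis and 85.9, 121 and 147 CPM in NASH. The 2 highest libraries were NASH and the lowest was steatosis 3, but NASH 1 was below 2 of the steatosis libraries. The log2 fold change was 0.32 (SE 0.27; adjusted p = 0.509 in edgeR).

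Slc25a15 carries ornithine and citrulline across the inner mitochondrial membrane, and Slc25a13 (citrin) exports aspartate for ASS1. Slc25a15, on chromosome 8 from 22375551 to 22398597, gave 28.3, 19.4 and 20.9 CPM in steatosis and 22.2, 21.9 and 33.7 CPM in NASH. Its groups overlapped (log2 ratio 0.18, SE 0.24; adjusted p = 0.696 in edgeR). Slc25a13, on chromosome 6 from 6041218 to 6217173, gave 26.0, 23.3 and 24.8 CPM in steatosis and 16.3, 18.2 and 21.5 CPM in NASH. All 3 NASH libraries were lower than all 3 steatosis libraries, and the steatosis values lay close together (24.7 ± 1.37 CPM against 18.7 ± 2.63 CPM). The log2 fold change was -0.40 (SE 0.18; adjusted p = 0.221 in edgeR). With libraries scaled to all their counts, Slc25a13 was called lower (log2 fold change -0.90, edgeR adjusted p = 0.0423), but that scaling also moved the median of all tested genes to -0.48, and relative to it the value was -0.42.

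**Figure D2:**
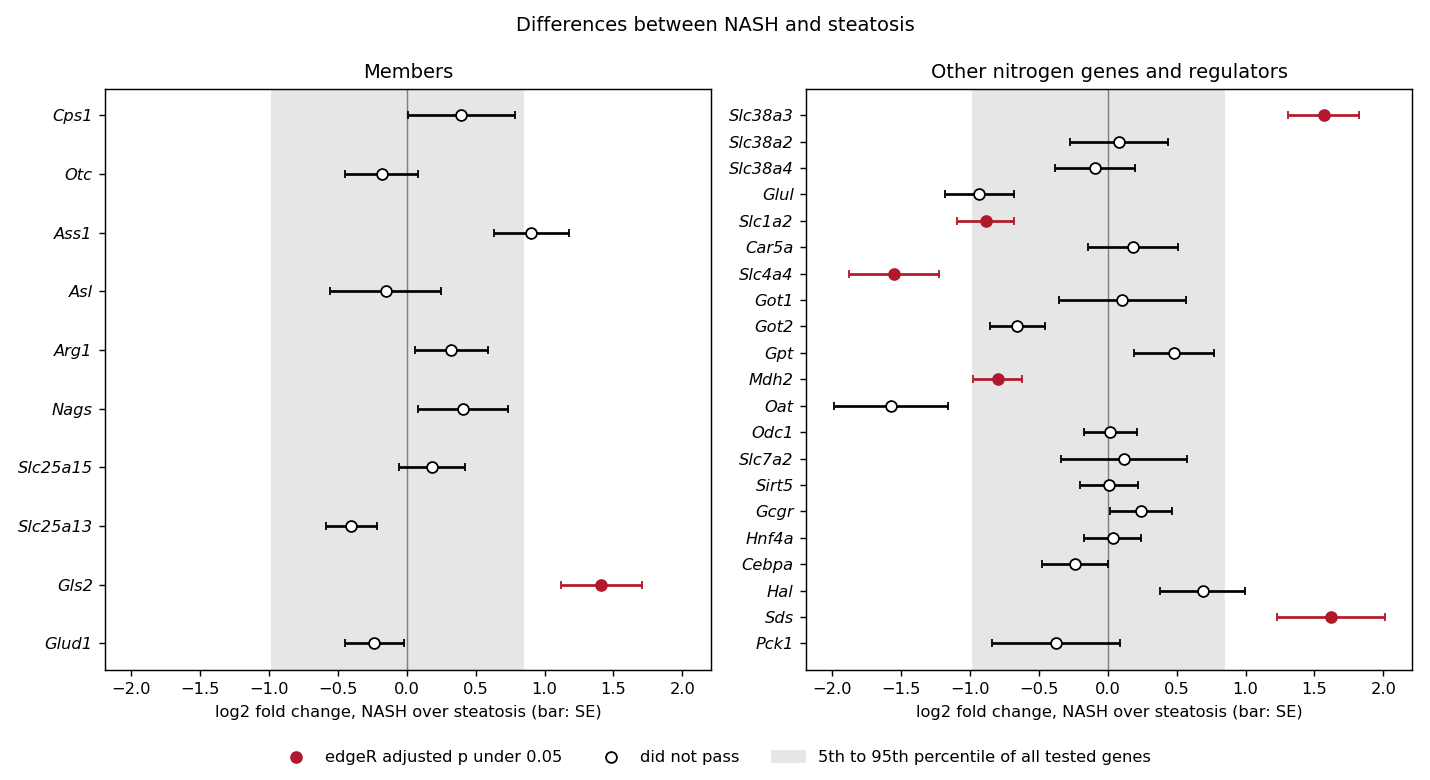
Log2 fold change of NASH over steatosis (x axis) for the 10 genes and for other nitrogen genes and regulators (y axis), with bars for the SE, filled points for an edgeR adjusted p under 0.05 and a grey band from the 5th to the 95th percentile of all tested genes (-0.98 to 0.84). Gls2, at 1.41, is the filled point among the 10, and Slc38a3, at 1.57, lies on the same side.

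The libraries did not rank the 10 genes alike. NASH 2 had the lowest Cps1 and Otc of the NASH group and the highest Gls2, Ass1, Asl and Nags. Steatosis 3 was the lowest of all 6 libraries for Cps1, Ass1 and Arg1. From the lowest to the highest library, the level differed 4.65-fold for Gls2, 3.29-fold for Cps1, 3.27-fold for Ass1 and 3.04-fold for Asl. Slc25a13 and Glud1 were the steadiest, at 1.59-fold and 1.46-fold.

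Levels of different genes were compared per kilobase of merged exon. In steatosis the order was Arg1 (42.28 ± 8.41 CPM per kb), Asl (42.24 ± 24.8), Glud1 (34.08 ± 4.57), Cps1 (22.38 ± 10.8), Otc (16.15 ± 2.03), Ass1 (14.22 ± 4.62), Slc25a13 (6.50 ± 0.36), Gls2 (5.95 ± 1.36), Slc25a15 (4.06 ± 0.84) and Nags (2.64 ± 0.68; SD, n = 3). Neighbours in this order overlapped between libraries, except that all Ass1 values were above all Slc25a13 values and all Slc25a15 values above all Nags values. In NASH, Arg1 was again first (52.85 ± 13.7) and Nags last (3.50 ± 1.60). Gls2 stood at 15.83 ± 5.50 CPM per kb there and moved from the eighth place to the sixth, past Slc25a13 (4.92 ± 0.69) and Otc (14.23 ± 4.25). All NASH libraries had Gls2 above Slc25a13, whereas Gls2 and Otc overlapped. Neighbours in the NASH order also overlapped, except that all Ass1 values (26.59 ± 4.49) were above all Gls2 values and all Otc values above all Slc25a13 values. Counting length by the longest transcript changed 6 of the 10 places in steatosis. Gls2 (8.04 CPM per kb) was then already above Slc25a13 (7.91) in steatosis, and moved from the 7th place to the 6th.

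**Figure D3:**
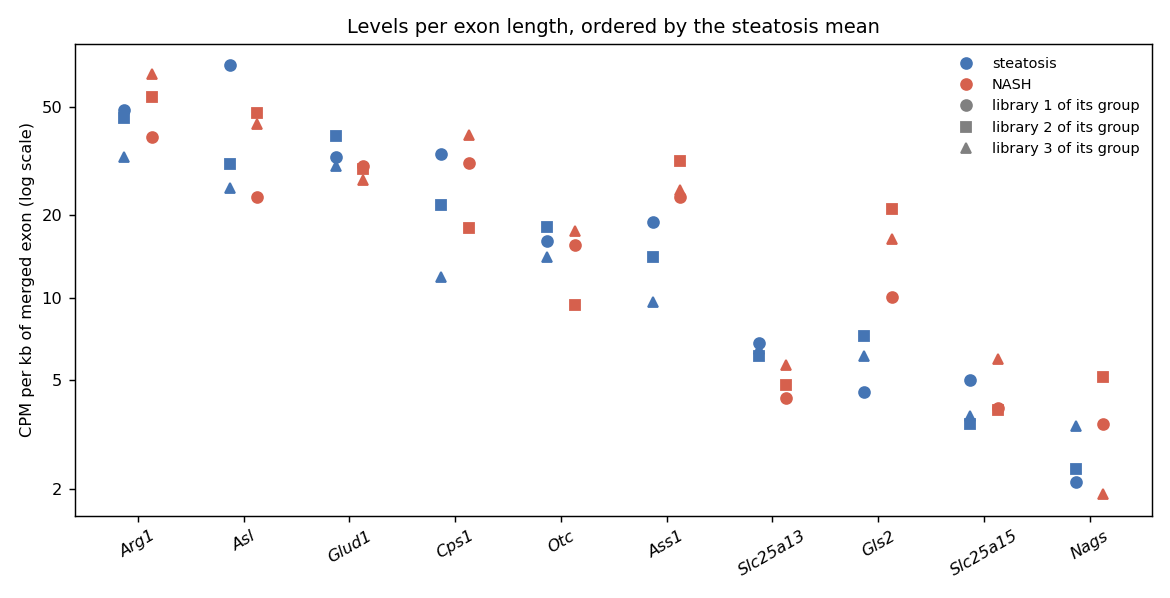
Level per kilobase of merged exon (y axis, log scale, CPM per kb) for the 10 genes (x axis), with points for libraries of each group. Arg1 and Asl are at the top and Nags is last; the Gls2 points of NASH lie above those of steatosis.

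Ratios within a library do not depend on how libraries were scaled. The 6 ratios that follow were chosen after values of these genes were seen, so their p-values are descriptive. Gls2 over Glul, per kilobase, was 0.0436, 0.0878 and 0.0804 in steatosis and 0.185, 0.446 and 0.459 in NASH. All NASH values were higher, with a 4.97-fold difference of geometric means. That separation was fixed in advance, since Gls2 was higher and Glul lower in every NASH library than in any steatosis library. The permutation p of this ratio therefore adds no support. Ass1 over Asl was 0.268, 0.457 and 0.383 in steatosis and 1.0, 0.67 and 0.572 in NASH, a 2.02-fold difference. Slc25a13 over Slc25a15 was 1.36, 1.77 and 1.76 in steatosis and 1.09, 1.23 and 0.947 in NASH, which is 0.668 times as high. Each of these 3 gave a two-sided exact permutation p of 0.1, the smallest that 3 libraries against 3 allow, and 0.15 after Benjamini-Hochberg adjustment over the 6. Cps1 over Otc, at 2.08, 1.2 and 0.844 against 1.99, 1.9 and 2.23, overlapped (exact permutation p = 0.3, adjusted 0.36). Gls2 over Cps1 also overlapped, with a 1.9-fold difference (exact permutation p = 0.5, adjusted 0.5). Glul over Glud1 was 0.61 times as high in NASH (exact permutation p = 0.1, adjusted 0.15).

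Profiles across the 6 libraries were compared by the root mean square difference of log2 CPM, each profile centred on its own mean, as a description without a test. Of 1953 other genes whose mean log2 CPM reached 4, those closest to Cps1 were Tbc1d8 (0.291), Dnm1l (0.304), Gm13341, a pseudogene (0.305), Tle1 (0.313) and the glutamine transporter Slc38a2 (0.325). Tbc1d8, Dnm1l and Tle1 share exon positions with another annotated gene, so their counts are uncertain. The counts of the pseudogene Gm13341 are uncertain too, since the handling of multiply mapped reads was not given. Among the 10, Slc25a15 (0.427) and Arg1 (0.463) were nearest to Cps1, and Gls2 (0.922) and Nags (0.966) farthest. The closest pairs within the 10 were Arg1 with Slc25a15 (0.239) and Slc25a13 with Glud1 (0.240), and the farthest was Otc with Gls2 (0.974).

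Upstream sequence was available for 6 of the 10 genes (RefSeq, GRCm38.p6): Otc, Ass1, Nags, Slc25a15, Slc25a13 and Glud1. Cps1, Asl, Arg1 and Gls2 had no entry. Ass1, Slc25a13 and Glud1 are shown because their groups did not overlap in TMM-scaled CPM, and Slc25a13 and Glud1 also because their profiles were close. For Glud1 the margin was very narrow, and its groups overlapped with libraries scaled to their counts outside mitochondrial and rRNA-like loci. Each stretch ends at the base before the first annotated start, in RefSeq or GENCODE. For Slc25a13 and Glud1 that leaves the 250 upstream bases whole. For Ass1 it leaves 187, because the GENCODE gene begins upstream of the RefSeq start at 31470270. Capitals mark a match on either strand. The letters searched were the CCAAT box (CCAAT), the GC box (GGGCGG), the E-box (CACGTG), the cyclic AMP response element (TGACGTCA) and a core of the HNF4 site (CAAAGTCCA). They cover chr2:31470020-31470206 (plus strand), chr6:6217174-6217423 (minus) and chr14:34310477-34310726 (plus).
Ass1: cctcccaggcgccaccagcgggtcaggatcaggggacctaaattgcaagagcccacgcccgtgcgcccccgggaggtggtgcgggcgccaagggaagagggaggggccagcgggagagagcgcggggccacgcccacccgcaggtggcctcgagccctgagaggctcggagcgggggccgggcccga
Slc25a13: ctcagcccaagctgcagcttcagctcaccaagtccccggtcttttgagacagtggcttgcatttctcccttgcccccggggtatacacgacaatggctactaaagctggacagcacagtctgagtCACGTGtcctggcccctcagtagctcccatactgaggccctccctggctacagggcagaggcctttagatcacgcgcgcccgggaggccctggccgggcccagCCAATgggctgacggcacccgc
Glud1: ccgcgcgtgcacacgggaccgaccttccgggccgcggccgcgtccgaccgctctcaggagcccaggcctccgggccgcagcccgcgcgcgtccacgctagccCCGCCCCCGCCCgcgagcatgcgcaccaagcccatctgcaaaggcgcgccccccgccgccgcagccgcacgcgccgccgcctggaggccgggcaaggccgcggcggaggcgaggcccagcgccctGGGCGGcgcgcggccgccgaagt
The printed part of the Ass1 window held none of the letters. That of Slc25a13 held CACGTG from base 126 and CCAAT from base 229, counted from the 5′ end. Glud1 held GGGCGG or its reverse complement from bases 103, 109 and 228. The GC content of the Glud1 stretch, 82.0%, was above the 75.4% of Ass1 and the 62.8% of Slc25a13. The median over all upstream windows was 52.4%. Counts over windows used all 250 bases before the RefSeq start, so they include the part of the Ass1 window not shown, which holds GGGCGG and CACGTG, and another Slc25a15 window that lies inside the GENCODE gene. On that basis 5 of 7 windows of the 10 genes held GGGCGG, against 32.7% of 32851 windows, and 3 of 7 held CACGTG, against 6.02%. CCAAT was in 1 of 7 against 33.8%, and TGACGTCA (1.55% of all windows) and CAAAGTCCA (0.384%) were in none. A match is a description of letters only.

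The lists of other genes, here and in the paragraphs below, were chosen with earlier results of these data known. Their counts beside the share of all tested genes are therefore descriptive. Of 17 listed genes of glutamine and ammonia handling, 14 were tested. Of these, 1 was called higher and 2 lower, beside 4.82% of all tested genes called, and 11 were not called (median log2 fold change 0.09, beside 0.01 over all tested genes). Slc38a3, the system N transporter that moves glutamine into and out of hepatocytes, stood at 205, 273 and 308 CPM in steatosis and 709, 819 and 799 CPM in NASH. The groups were far apart, at means of 262 ± 52.7 and 776 ± 58.3 CPM, and Slc38a3 rose (log2 ratio 1.57, SE 0.25; adjusted p = 0.0121 in edgeR). The call was lost only without steatosis 2 (edgeR adjusted p = 0.0666) among single omissions, and in the 4 libraries left without steatosis 2 and NASH 3 (0.117 at a log2 fold change of 1.57).

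The glutamate transporter Slc1a2 fell from 63.1, 52.6 and 51.9 CPM to 32.4, 25.1 and 33.0 CPM (log2 ratio -0.89, SE 0.21; adjusted p = 0.0428 in edgeR). The bicarbonate cotransporter Slc4a4 fell from 7.89, 7.13 and 7.75 CPM to 3.68, 1.21 and 2.91 CPM (log2 ratio -1.55, SE 0.33; adjusted p = 0.0282 in edgeR). The Slc1a2 call was lost in each of the 6 single omissions (edgeR adjusted p 0.0613 to 0.137) and with libraries scaled to their counts outside mitochondrial and rRNA-like loci (0.0606). That of Slc4a4 was lost without steatosis 1 (0.0969), steatosis 2 (0.0795), steatosis 3 (0.0518) or NASH 3 (0.0611) by the same edgeR test. Glul, the glutamine synthetase, had 345, 274 and 252 CPM in steatosis and 181, 157 and 118 CPM in NASH, without overlap. Glul did not pass (log2 ratio -0.93, SE 0.25; adjusted p = 0.0633 in edgeR). It did with DESeq2 (adjusted p = 0.00691), limma-voom (0.0471), edgeR without the filter (0.0163) and edgeR scaled to all counts (0.00836). In each of the 6 single omissions Glul did not pass (edgeR adjusted p 0.075 to 0.196). Car5a, the mitochondrial carbonic anhydrase that supplies bicarbonate, gave a log2 ratio of 0.18 (edgeR adjusted p = 0.783).

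**Figure D4:**
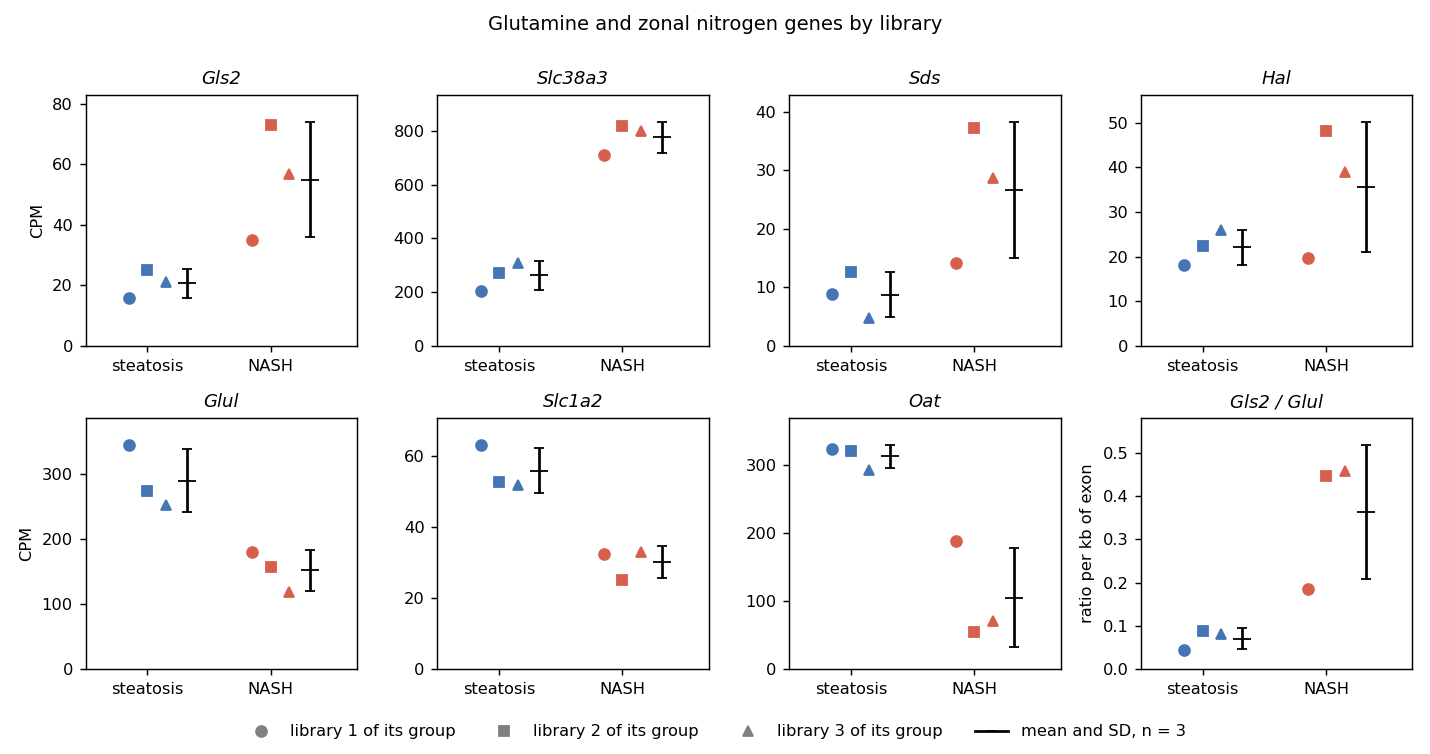
Levels of Gls2, of 6 genes of glutamine handling and of the periportal or pericentral lists (y axis: CPM from 0, separate scale per panel; x axis: group), and the ratio of Gls2 to Glul per kilobase of exon, with points for libraries and bars for the mean and SD of 3. Slc38a3 runs at 709 to 819 CPM in NASH, above every steatosis library, while Glul, Slc1a2 and Oat lie lower in all 3 NASH libraries and Hal overlaps.

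The listed genes that make, move or use aspartate and alanine gave 1 call higher and 1 lower of 13 tested (median 0.02). Over all tested genes 1.49% were called higher and 3.33% lower. Mdh2, the mitochondrial malate dehydrogenase, fell from 27.4, 26.7 and 29.6 CPM to 15.0, 17.5 and 15.5 CPM (log2 ratio -0.80, SE 0.18; adjusted p = 0.0337 in edgeR). The call was lost in each single omission (edgeR adjusted p 0.0702 to 0.107) and on the scale without mitochondrial and rRNA-like counts (0.0782). Asns, the asparagine synthetase, which uses aspartate, had 3 counts over the 3 steatosis libraries and 63 over the 3 NASH libraries. Per scaled library size the ratio was 31.2 (95% exact interval 10.2 to 155, counting error only). Asns was called higher (edgeR adjusted p = 0.0128), but not without steatosis 1 (0.0542) or in the 4 libraries (0.0539). Its counts, 0, 2 and 1 in steatosis and 13, 40 and 10 in NASH, passed the low-count filter only through the NASH libraries. With a stricter filter (1 CPM or more in 3 libraries) Asns was not tested, and the list had 0 calls higher. Of the aminotransferases, Got2 had a log2 ratio of -0.66 (edgeR adjusted p = 0.0874), Got1 0.11 (0.92) and Gpt 0.48 (0.353). Single libraries set the Got1 value, which was 0.997 without steatosis 1 and -0.23 without steatosis 3.

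Arginine, ornithine and proline genes gave no call among 19 tested of 24 (median -0.01). DESeq2, limma-voom, the replicate block and the omission of NASH 1 each gave 1 call lower. There were 2 lower without the filter and 3 lower with libraries scaled to all counts. Of the 19, 3 were at an unadjusted edgeR p under 0.05, beside 23.2% of all tested genes. Oat, the ornithine aminotransferase, had 323, 321 and 293 CPM in steatosis and 188, 55.2 and 71.0 CPM in NASH, with no overlap and with NASH 1 apart from the other two (log2 ratio -1.58, SE 0.41; adjusted p = 0.0558 in edgeR). Oat passed with DESeq2 (adjusted p = 0.00121), limma-voom (0.0356), edgeR without the filter (3.85e-06) and edgeR scaled to all counts (0.00513). Without NASH 1 its log2 ratio was -2.30 (edgeR adjusted p = 0.0135). Odc1, the ornithine decarboxylase, gave a log2 ratio of 0.02 (edgeR adjusted p = 0.971). The arginine transporter Slc7a2 gave 0.12 (SE 0.46; adjusted p = 0.911 in edgeR), with NASH libraries from 15.8 to 64.7 CPM and log2 ratios from -0.21 to 0.53 over single omissions. The sister genes of the cycle's isoforms and carriers were low: Arg2 and Slc25a2 held 11 and 39 counts over the 6 libraries and were not tested, and Slc25a12, the other aspartate carrier, gave 0.05 (edgeR adjusted p = 0.94).

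No call was made among the 6 genes whose products modify urea cycle enzymes (median -0.33) or among 16 regulators (median -0.07, and 1 called by DESeq2). At an unadjusted edgeR p under 0.05 were 2 of the 6 and 1 of the 16, beside 23.2% of all tested genes. That regulator, singled out after its values were seen, was Ppara (log2 ratio -1.14, edgeR adjusted p = 0.0543). The regulators gave 1 call lower without steatosis 3 or without the filter, and 3 lower with libraries scaled to all counts. The modifiers gave 1 lower without the filter and 2 lower with that scaling. Sirt5, which removes acyl groups from CPS1, gave a log2 ratio of 0.01 (edgeR adjusted p = 0.985). The glucagon receptor Gcgr gave 0.24 (edgeR adjusted p = 0.562), Hnf4a 0.03 (0.944) and Cebpa -0.24 (0.598).

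Of 15 periportal hepatocyte markers, 1 was called higher and none lower (median 0.12), beside 1.49% of all tested genes called higher. Groups did not overlap for 3 of the 15, all higher, beside 13.1% of all tested genes. The call was Sds, the serine dehydratase, at 8.81, 12.6 and 4.82 CPM in steatosis and 14.2, 37.2 and 28.7 CPM in NASH (log2 ratio 1.62, SE 0.39; adjusted p = 0.0457 in edgeR), and it was lost in every single omission but that of NASH 1 (edgeR adjusted p 0.0681 to 0.143). Without NASH 2 the list had 0 higher and 1 lower instead, and scaling to all counts gave 1 higher and 1 lower. DESeq2 and edgeR without the filter each called 2 higher. Hal gave 0.69 (edgeR adjusted p = 0.21) and Pck1 -0.38 (0.674). Some of the genes named here overlap an exon of a neighbouring annotation, and their counts are uncertain for that reason. They are Sds (with Plbd2), Nr1i3 (Tomm40l), Glul (Teddm2 and Mir8114), Slc1a2 (Gm13872), Got2 (Gm45760), Slc7a2 (Gm26584), Car5a (BC048644) and Cebpa (Gm45091). The summed level of the periportal markers was 636 to 1220 CPM in steatosis and 536 to 1040 CPM in NASH. Of 13 tested pericentral markers, 6 were called lower and none higher (median -0.91), beside 3.33% of all tested genes called lower. Groups did not overlap for 10 of the 13, all lower, beside 16.2% of all tested genes. The sum of the pericentral markers ran from 2430 to 3020 CPM in steatosis and from 1030 to 1400 CPM in NASH. The 6 were Cyp7a1 (log2 fold change -2.39), Nr1i3 (-2.35), Cyp2e1 (-1.16), Cyp1a2 (-1.09), Slc1a2 (-0.89) and Slc13a3 (-0.88), with edgeR adjusted p from 0.00554 to 0.0481. Glul, Oat and Slc1a2 stand in this list as well as in the lists above. Single omissions left 2 to 4 calls (2 without steatosis 1, steatosis 2, NASH 2 or NASH 3), other scalings, filters and tools 4 to 9, and the 4 libraries without steatosis 2 and NASH 3 none.

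Markers of other liver cells gave 1 call, with the number tested given by list below. Those of kidney and gut gave 1 call of 1 tested, beside 4.82% of all tested genes called. An unadjusted edgeR p under 0.05 was found for 23.2% of all tested genes. Kupffer cell markers gave none among 10 in edgeR (1 at an unadjusted p under 0.05), with sums of 43.6 to 48.2 CPM in steatosis and 33.5 to 75.9 CPM in NASH. Sinusoidal endothelial markers gave none among 9 (4 at an unadjusted edgeR p under 0.05), but their sum was higher in all 3 NASH libraries (103 to 147 CPM) than in steatosis (74.4 to 96.5 CPM). Stellate markers gave 1 lower of 9, Dcn (log2 ratio -1.03, edgeR adjusted p = 0.0348), and their sum was lower in NASH (43.1 to 59.1 CPM) than in steatosis (63.7 to 77.3 CPM). Acta2, a marker of activated stellate cells singled out after its values were seen, was higher in all 3 NASH libraries without passing (log2 ratio 1.05, edgeR adjusted p = 0.107). Recruited macrophage markers gave no call among 6 tested of 12 (17.7 to 18.6 and 18.7 to 23.5 CPM), and cholangiocyte markers none among 4 tested of 7 (33.9 to 53.9 and 21.4 to 35.9 CPM). Neutrophil markers (1 of 7 tested, 2.04 to 3.93 and 2.08 to 4.99 CPM) and erythroid markers (5 tested, 209 to 238 and 163 to 250 CPM) gave no call in edgeR, with 0 and 1 at an unadjusted p under 0.05. None of 9 lymphocyte markers reached the filter (1.45 to 2.7 and 0.938 to 2.22 CPM). Of the 8 kidney and gut genes only Fabp2 was tested, and it was called lower (log2 ratio -1.04, edgeR adjusted p = 0.031). Kap, Slc12a1 and Sis were at 0 in all 6 libraries. The part of these cells, or of the lower pericentral markers, in the values of the 10 genes was not tested.

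**Figure D5:**
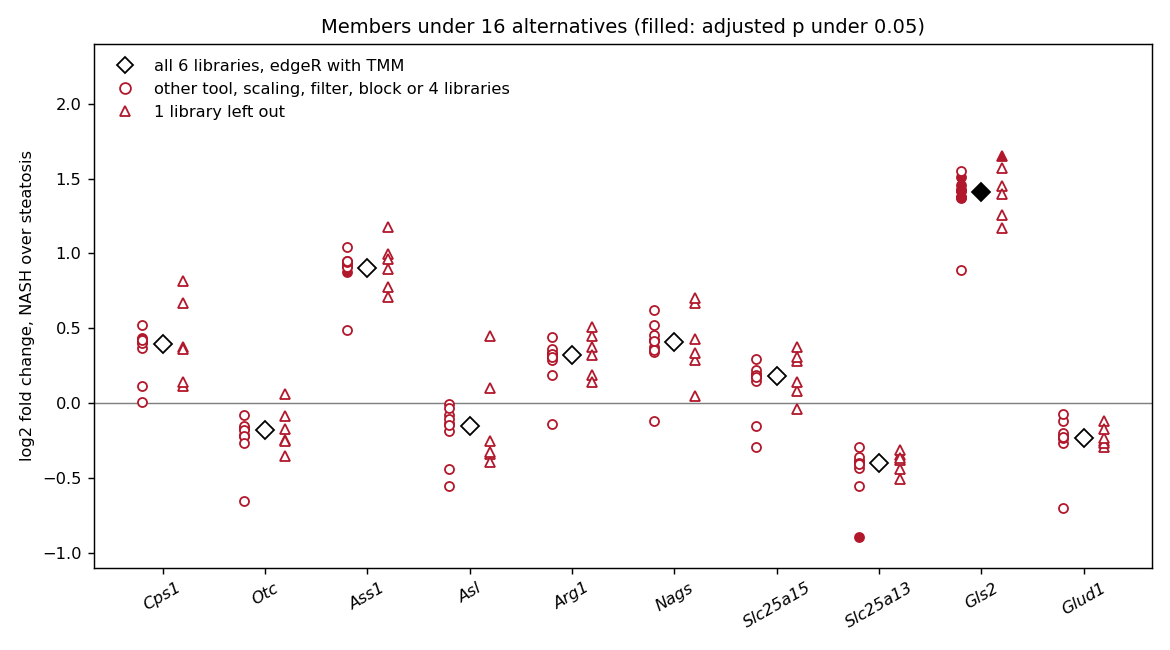
Log2 fold change of each of the 10 genes (x axis) under the reported fit and 16 alternatives (y axis: log2 fold change), filled where the adjusted p is under 0.05. Gls2 is above 0 in every one and filled in 9 of the 16, while Asl, Otc, Arg1, Nags and Slc25a15 cross 0 in at least 1.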

How the data were processed

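RNA from 6 mouse liver samples was sequenced, 3 classed as steatosis and 3 as NASH. Per the submitters' processing notes, TopHat2 and HTSeq were used with mm10 (GRCm38). No version is named. The annotation release, strandedness and handling of multiply mapped reads were not given in the sources used. The values the authors deposited are raw counts per gene, not normalized, for 39179 Ensembl identifiers, of which 37607 were paired with a symbol. Rhbg and Tf are not analysed here.

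Counts were analysed in R 4.3.3 with edgeR 4.0.16: the default low-count filter, TMM scaling (factors 0.793 to 1.5) and the quasi-likelihood test with Benjamini-Hochberg adjustment over all tested genes. CPM values use the TMM-scaled total, mitochondrial counts included. The SE is the size of the log2 fold change divided by the root of the F statistic. Profiles used a prior count of 2. DESeq2 1.42.0 and limma 3.58.1 were alternatives, as were other scalings and filters, a replicate block and the omission of libraries. The fitting code was tested on simulated data. Coordinates are from GENCODE M21. The 10 genes are all named whatever their result, with every called gene of each list (at most 6 per list, by smallest p), a panel of 21 genes (1 of them not reported here), and the 5 profiles closest to Cps1. The genes and lists were chosen with earlier results of these data known. Libraries of one group differed by more than counting noise (chi-square per degree of freedom 14.0 to 27.3), so no library was treated as a copy of another, although separate preparations of 1 liver could differ as much.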

Additional observations from a re-analysis of the deposited data

How the results depend on the processing

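Over all tested genes, 548 calls (169 higher, 379 lower) became 1447 without the low-count filter (535 higher, 912 lower, 19803 genes tested), 1607 with libraries scaled to all their counts (53 higher, 1554 lower) and 36 in the 4 libraries left without steatosis 2 and NASH 3 (17 higher, 19 lower). Leaving out 1 library gave 114 to 468 calls. With libraries scaled to counts outside mitochondrial and rRNA-like loci the split was 179 higher and 222 lower, and the median of all genes moved to 0.116. DESeq2 made 812 calls and limma-voom 528.

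Of the 10 genes, 2 were called with DESeq2 and 2 without the filter (Gls2 and Ass1 in both), 0 in the 4 libraries, and 0 to 1 when 1 library was left out. Scaling to all counts made 1 call, Slc25a13 lower, in place of Gls2. That scaling moved the median of all genes to -0.48 and turned the log2 fold changes of Arg1 (-0.14), Nags (-0.12) and Slc25a15 (-0.29) negative, although relative to that median they were 0.34, 0.36 and 0.19. In the 4 libraries Slc25a15 was -0.15. Leaving out 1 library gave Asl -0.40 to 0.45 (positive without steatosis 1 or NASH 1), Otc -0.356 to 0.0588 (positive without NASH 2) and Slc25a15 -0.0415 to 0.377 (negative without NASH 3), and the cause was not tested. Gls2 kept its direction in all 16 alternatives and its call in 9, and in the 4 libraries it was 1.55 (edgeR adjusted p = 0.133). Ranking by longest transcript changed 6 places in the order of levels. The 5 profiles closest to Cps1 were the same 5 with a prior count of 0.5.

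The labels share replicate numbers, but same-numbered libraries did not deviate together (correlations 0.0349, -0.0123 and 0.0706), so the numbers were not taken to pair them. With the replicate block there were 466 calls (153 higher, 313 lower), and Gls2 was 1.37 (edgeR adjusted p = 0.0131), the 1 call among the 10 genes. Slc1a2 (0.0545) and Mdh2 (0.0557) did not pass in that edgeR fit, Oat did (0.0303), and the periportal list had 2 called higher. Asns rests on 3 counts in steatosis and Nags on 60 to 261 counts per library, the fewest of the 10 genes.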
